A study of Mus musculus with 2 samples.

Results

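The genes described here are 10 genes of the Hippo pathway and its YAP-TEAD output, *Yap1*, *Wwtr1*, *Tead1*, *Tead2*, *Tead3*, *Tead4*, *Lats1*, *Lats2*, *Ankrd1* and *Amotl2*. They were chosen by symbol from the 22156 rows of the expression table, and all 10 were found. The RNA came from primary chondrocytes, the cells of cartilage, with rib cartilage as their source in the labels and rib and articular cartilage of newborn mice in the study's methods, kept untreated as a monolayer in serum. There was 1 library from control mice, whose genotype the labels give as WT and which the study describes as floxed littermates, and 1 from *Myl3*-KO mice. In the latter, *Col2a1*-Cre, a recombinase expressed from the promoter of a cartilage collagen gene, deletes floxed alleles of *Myl3*, which encodes a myosin light chain, so deletion depends on cells that have used this promoter.

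The control library held 17612435 expected counts and the *Myl3*-KO library 13477977. An expected count is an estimate of the reads of a gene that may share a read between genes, and it was whole for all 20 values of the members. *Myl3* had 0 counts in both libraries, so its deletion could not be seen in these reads and the labels could not be checked from them. The study itself measured *Myl3* RNA by RT-PCR and the protein by western blot in primary chondrocytes of both genotypes. The chondrocyte markers *Acan*, *Matn1*, *Matn3* and *Hapln1* were at 0 in both libraries and *Col2a1* had 30 and 27 counts, whereas *Col1a2* had 211652 and 189213 and *Sox9* 866 and 480. The summed level of 11 chondrocyte markers was 58.6 CPM (counts relative to the library total) in control and 46.3 in *Myl3*-KO, but without *Sox9* it was 9.43 and 10.7, and 4 of the 5 tested had ratios above 0. The sum of 8 fibroblast markers was 14958 and 17228 CPM, of which *Col1a2* alone gave 12017 and 14039. On the same list *Thy1* was at 0 in both libraries, *Fap* had 1 and 0 counts and *Dpt* 5 and 2. Of the 5 fibroblast markers tested, 2 were called higher in *Myl3*-KO by the rule given below, *Pdgfra* with 120 and 140 counts and *Pdgfrb* with 3689 and 4617 (log2 ratio 0.71). The sums were 10.4 and 9.79 CPM for 4 smooth muscle markers, 0.397 and 0.890 for 5 endothelial markers and 1.88 and 2.08 for 4 leukocyte markers. These cartilage matrix genes were thus at 0 or low, and the cells are called chondrocytes only as labelled. The part of these marker differences in the values below was not tested.

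The Hippo pathway is a kinase cascade that restrains growth. The MST kinases activate LATS1 and LATS2, which phosphorylate the coactivators YAP and TAZ and keep them out of the nucleus. Unphosphorylated YAP and TAZ enter the nucleus, bind the TEAD transcription factors and switch on genes such as *Ankrd1*, *Ccn1*, *Ccn2*, *Amotl2* and *Lats2*, the last 2 of which feed back on the pathway. In chondrocytes YAP and TAZ respond to substrate stiffness, cell shape and actin tension. RNA levels do not report the phosphorylation or location of these proteins.

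TEAD proteins bind the letters CATTCC, or GGAATG on the other strand. Windows of 300 bases around a transcript start, from 250 before it to 50 after it, were taken from RefSeq on GRCm38.p6 and were at hand for 8 of the 10 members. *Tead1* and *Tead4* had no entry. At least 1 match on either strand was found for 6 of the 8, *Yap1*, *Wwtr1*, *Tead3*, *Lats2*, *Ankrd1* and *Amotl2*, and for neither *Tead2* nor *Lats1*. Among all 27025 genes with a window, 16.6% held a match. Counted by window, 8 of the 12 windows of the members (66.7%) and 14.7% of all 32851 windows held one, and some windows of a gene overlap. A match is a description of letters and not of binding. The windows below show the 3 members on the list of YAP-TEAD targets, the coactivator *Yap1* and *Tead3*, the member with the highest count ratio, with the matches in capitals and all other bases in lower case, 5′ to 3′ on the strand of the gene.
*Ankrd1*, chr19:36119795-36120094, minus strand: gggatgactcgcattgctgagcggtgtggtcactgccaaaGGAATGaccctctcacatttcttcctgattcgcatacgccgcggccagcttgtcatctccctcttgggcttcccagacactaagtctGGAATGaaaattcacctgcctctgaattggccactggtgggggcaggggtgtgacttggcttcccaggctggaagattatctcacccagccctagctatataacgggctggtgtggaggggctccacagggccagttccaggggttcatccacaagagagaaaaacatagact
*Amotl2*, chr9:102717554-102717853, plus strand: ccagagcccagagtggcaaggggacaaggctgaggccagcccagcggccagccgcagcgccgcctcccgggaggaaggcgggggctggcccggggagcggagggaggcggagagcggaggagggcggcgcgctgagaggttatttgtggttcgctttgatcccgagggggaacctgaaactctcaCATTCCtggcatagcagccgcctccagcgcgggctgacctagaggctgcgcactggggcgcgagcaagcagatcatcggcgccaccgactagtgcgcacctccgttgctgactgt
*Lats2*, chr14:57746074-57746373, minus strand: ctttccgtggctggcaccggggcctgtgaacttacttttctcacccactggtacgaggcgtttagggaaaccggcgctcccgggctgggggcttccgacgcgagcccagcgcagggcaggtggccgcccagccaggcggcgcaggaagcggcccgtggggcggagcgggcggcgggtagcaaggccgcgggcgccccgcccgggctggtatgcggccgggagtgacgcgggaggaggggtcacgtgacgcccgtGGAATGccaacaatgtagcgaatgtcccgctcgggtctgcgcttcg
*Yap1*, chr9:8004547-8004846, minus strand: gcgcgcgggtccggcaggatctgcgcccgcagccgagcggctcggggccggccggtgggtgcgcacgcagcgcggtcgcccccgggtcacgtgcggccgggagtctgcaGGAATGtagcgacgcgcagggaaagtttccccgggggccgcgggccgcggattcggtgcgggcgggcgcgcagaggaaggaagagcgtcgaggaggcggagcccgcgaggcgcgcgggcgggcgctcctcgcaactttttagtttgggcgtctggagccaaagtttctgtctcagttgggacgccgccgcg
*Tead3*, chr17:28350551-28350850, minus strand: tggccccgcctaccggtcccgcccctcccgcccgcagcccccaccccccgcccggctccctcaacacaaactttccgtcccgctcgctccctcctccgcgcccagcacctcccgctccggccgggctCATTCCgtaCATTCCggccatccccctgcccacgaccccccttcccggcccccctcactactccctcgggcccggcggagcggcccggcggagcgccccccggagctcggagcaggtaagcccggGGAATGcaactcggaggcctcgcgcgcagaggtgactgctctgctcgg
In the *Ankrd1* window the matches began at bases 41 and 128 counted from its 5′ end, and both were GGAATG. *Amotl2* had CATTCC at base 186, *Lats2* GGAATG at base 255 and *Yap1* GGAATG at base 110. *Tead3* had matches at bases 128, 137 and 253, and a neighbouring window of the same gene had another at base 69. No match was found in a further *Tead3* window, chr17:28350297-28350596, or in the other *Lats2* window, chr14:57734369-57734668.

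All 10 members were detected in both libraries, and the ratio of *Myl3*-KO over control was above 1 for each of them. None reached the limit set for a call, a two-sided exact binomial p under 0.05 on the rounded counts together with at least a 1.5-fold difference in CPM. The unadjusted p was under 0.05 for 7 of them, none of which was 1.5-fold apart. A further setting used edgeR's exact test with an assumed variation between replicates of 0.2 (coefficient of variation). It kept the fold limit, so it could not call any member, and its count of 0 says nothing on these 7. *Tgfb1*, a pathway gene named below, had 530 and 638 counts and a log2 ratio of 0.65, above that of every member. It was past the fold limit and was not called at this setting, while *Ccnd1* with a log2 ratio of 1.09 was. Whether any of the 7 would pass at this setting without the fold limit was not tested. Of the 12431 genes tested, which had at least 10 counts over both libraries, 3.80% were called higher and 1.19% lower. When the fold limit was dropped and a Benjamini-Hochberg adjusted p under 0.05 over all genes tested was asked for, 7 members passed, all higher, against 18.6% of all genes higher and 16.8% lower. The members were better counted than most genes, with a median of 2976 counts over both libraries against 1053, so that smaller ratios could pass. Among genes with at least 1000 counts, a limit chosen after seeing the data, 24.0% were higher and 27.3% lower by the adjusted p, and 6 of the 7 members with such counts were higher. Among genes with at least 100 counts, which includes all members, the shares were 20.6% and 19.6%. The median log2 ratio of the members was 0.18, from 0.07 for *Lats1* to 0.54 for *Tead3*, beside a median of 0.02 over all genes tested, of which 52.7% had a ratio above 0. The test compares the reads of these libraries and not the genotypes, since with 1 library per genotype the spread between mice or cultures is unknown, and the 95% Clopper-Pearson intervals given with the log2 ratios cover counting error only. In bulk RNA, fewer expressing cells and less RNA per cell cannot be told apart.

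**Figure D1:**
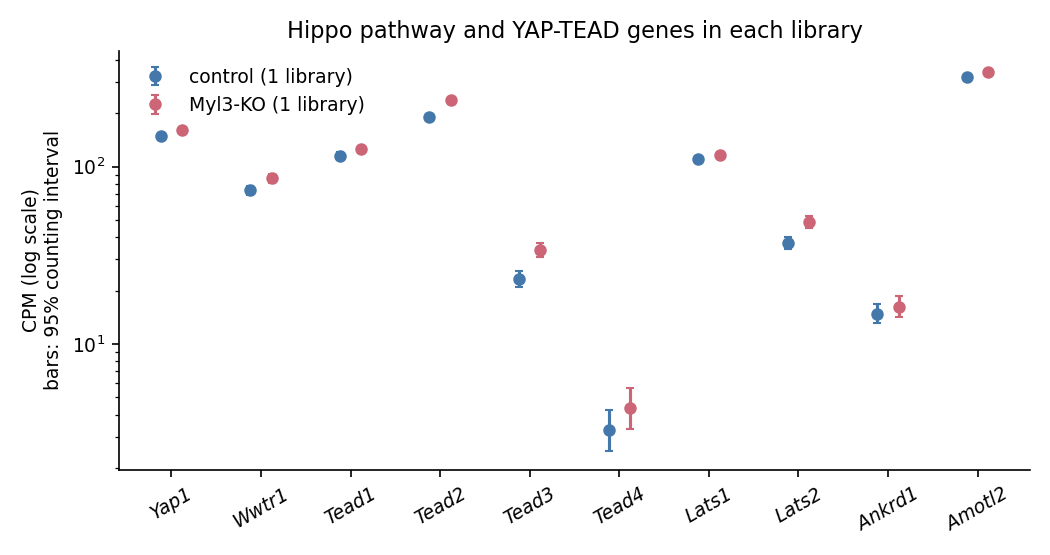
Level of each member in the control library (blue) and the *Myl3*-KO library (red) in CPM on a log axis, with bars for the 95% Poisson interval of the count. The red point lies above the blue one for all 10 genes, from *Tead4* at 3.29 and 4.38 CPM to *Amotl2* at 321 and 341 CPM.

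Of the coactivator genes, *Yap1* (ENSMUSG00000053110, chromosome 9 from 7931999 to 8004596), which encodes YAP, had 2624 counts in control and 2162 in *Myl3*-KO (149 and 160 CPM). The larger count stands in the deeper library, and relative to the totals *Yap1* was 1.08-fold higher in *Myl3*-KO. Its log2 ratio was 0.11 (95% counting interval 0.02 to 0.19, exact binomial test with Benjamini-Hochberg adjusted p = 0.0340), and the adjusted p was 0.0862 with TMM factors, another scaling of the libraries, and 0.0813 with DESeq2 size factors. *Wwtr1* (ENSMUSG00000027803, chromosome 3 from 57455649 to 57575910), which encodes TAZ, had 1293 and 1162 counts, or 73.4 and 86.2 CPM. Its ratio was 1.17-fold, a log2 ratio of 0.23 (95% counting interval 0.12 to 0.35, exact binomial test, adjusted p = 0.000474). In FPKM, which divides by transcript length and so lets genes be compared, *Yap1* was at 37.1 and 40.2 and *Wwtr1* at 15.6 and 18.4. *Yap1* was thus the more abundant coactivator transcript in both libraries. The FPKM of *Wwtr1* was 0.421 times that of *Yap1* in control and 0.457 times in *Myl3*-KO, and the change of this balance in counts, 0.13 on the log2 scale (95% counting interval -0.02 to 0.27), did not differ from 0 beyond counting error (Fisher's exact test, adjusted p = 0.146 over 9 pairs of members).

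The TEAD genes encode the DNA-binding partners of YAP and TAZ, and their summed FPKM was 114 in control and 145 in *Myl3*-KO, 1.27-fold higher. *Tead2* (ENSMUSG00000030796, chromosome 7 from 45215753 to 45233644) made up most of it, with 3342 counts in control and 3181 in *Myl3*-KO (190 and 236 CPM). The control library therefore gave nearly the same count from more reads in total. The log2 ratio of *Tead2* was 0.31 (95% counting interval 0.24 to 0.39, exact binomial test, adjusted p = 5.66e-17), the lowest adjusted p among the members. The locus of *Tead2* shares exon bases with *Cd37*, to which the table gave 9 and 12 counts. *Tead3* (ENSMUSG00000002249, chromosome 17 from 28331671 to 28350817) had 410 and 457 counts, or 23.3 and 33.9 CPM, and was the only member besides *Tead4* with more counts in the shallower *Myl3*-KO library. Its ratio of 1.46-fold was the highest of the members and lay just under the limit for a call (log2 ratio 0.54, 95% counting interval 0.35 to 0.74, exact binomial test, adjusted p = 3.81e-07). The FPKM values of *Tead3*, 9.63 and 14.7, gave a log2 ratio of 0.61, just over that limit of 0.58.

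*Tead1* (ENSMUSG00000055320, chromosome 7 from 112679318 to 112906807) had 2031 and 1690 counts, or 115 and 125 CPM. Its log2 ratio was 0.12 (95% counting interval 0.03 to 0.21, exact binomial test, adjusted p = 0.0346), and the adjusted p was 0.0803 with TMM factors and 0.0750 with DESeq2 size factors. *Tead4* (ENSMUSG00000030353, chromosome 6 from 128224288 to 128300823) was the least abundant member, with 58 and 59 counts, or 3.29 and 4.38 CPM. At this depth its log2 ratio of 0.41 had an interval from -0.14 to 0.96 that held both no difference and more than 1.5-fold (exact binomial test, adjusted p = 0.255). Its FPKM values of 1.22 and 1.89 gave a log2 ratio of 0.63, and the length implied by count and FPKM was 2699 bases in control and 2316 in *Myl3*-KO. Such a shift of more than 0.1 on the log2 scale was found for 9.25% of 10280 genes with at least 100 counts and an FPKM of at least 1, and among the members for *Tead4* alone.

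By FPKM, *Tead2* held 79.4% of the TEAD transcripts in control and 79.1% in *Myl3*-KO. *Tead1* held 11.1% and 9.48%, *Tead3* 8.44% and 10.1%, and *Tead4* 1.07% and 1.30%. *Tead1* was above *Tead3* in control, at 12.7 against 9.63 FPKM, with counting intervals that did not overlap, and in *Myl3*-KO it was at 13.8 against 14.7 FPKM with intervals that did. The ratio of *Tead3* to *Tead1* counts went from 0.202 to 0.270, a log2 change of 0.42 (95% counting interval 0.20 to 0.64, Fisher's exact test, adjusted p = 0.00103 over 9 pairs), and that of *Tead2* to *Tead1* from 1.65 to 1.88, a log2 change of 0.19 (95% counting interval 0.08 to 0.31, Fisher's exact test, adjusted p = 0.00346). These changes do not depend on how the libraries are scaled. The ratio of *Tead3* to *Tead2* changed by 0.23 on the log2 scale (95% counting interval 0.02 to 0.44, Fisher's exact test, adjusted p = 0.0677), which missed the threshold. The 3 pairs with *Tead4* had wide intervals, the widest from -0.72 to 0.45 against *Tead3*.

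**Figure D2:**
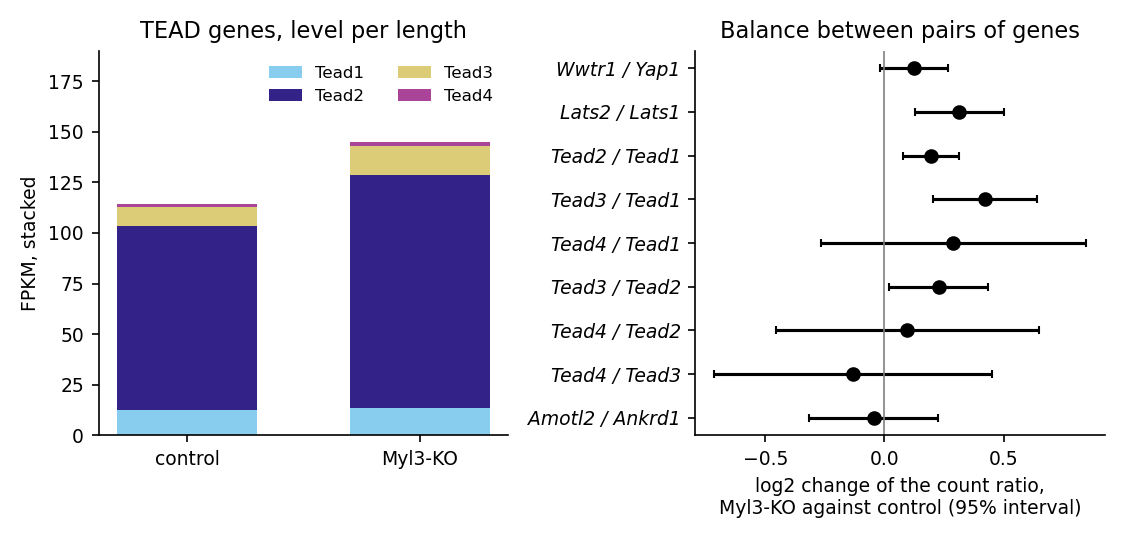
Left, FPKM of the 4 TEAD genes stacked for each library (1 library per bar), which sum to 114 in control and 145 in *Myl3*-KO with *Tead2* as the main part of both. Right, log2 change of the count ratio of 9 pairs of members between the libraries, with 95% intervals, of which *Lats2* over *Lats1*, *Tead2* over *Tead1* and *Tead3* over *Tead1* kept an adjusted p under 0.05.

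The kinase genes *Lats1* and *Lats2*, whose products inhibit YAP and TAZ, differed from each other. *Lats1* (ENSMUSG00000040021, chromosome 10 from 7681214 to 7716460) had 1938 counts in control and 1558 in *Myl3*-KO, or 110 and 116 CPM. This difference was within counting error, with a log2 ratio of 0.07 (95% counting interval -0.03 to 0.17, exact binomial test, adjusted p = 0.278). *Lats2* (ENSMUSG00000021959, chromosome 14 from 57689662 to 57758388), itself a YAP-TEAD target, had 654 counts in each library, or 37.1 and 48.5 CPM. An equal count from the shallower library corresponds to a 1.31-fold higher level in *Myl3*-KO (log2 ratio 0.39, 95% counting interval 0.23 to 0.54, exact binomial test, adjusted p = 1.20e-05). The ratio of *Lats2* to *Lats1* counts rose from 0.337 to 0.420, a log2 change of 0.31 (95% counting interval 0.13 to 0.50, Fisher's exact test, adjusted p = 0.00346 over 9 pairs). *Lats1* remained the more abundant transcript, at 15.3 and 16.1 FPKM against 7.43 and 9.77 for *Lats2*.

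The other members on the target list, *Ankrd1* and *Amotl2*, had smaller ratios than *Lats2*. *Ankrd1* (ENSMUSG00000024803, chromosome 19 from 36111961 to 36120099), which encodes an ankyrin repeat protein and is among the most used readouts of YAP-TEAD activity, had 261 and 219 counts, or 14.8 and 16.2 CPM. Its log2 ratio of 0.13 was within counting error (95% counting interval -0.13 to 0.40, exact binomial test, adjusted p = 0.499). *Ankrd1* is also a gene of striated muscle. Of 9 skeletal muscle markers, *Myod1*, *Myf5*, *Myog*, *Pax7*, *Des* and *Actn2* were at 0 in both libraries, and the sum of the list without *Cdh15* was 0.397 CPM in control and 0.0742 in *Myl3*-KO, while *Cdh15*, a cadherin gene that was called higher, had 73 and 290 counts. *Amotl2* (ENSMUSG00000032531, chromosome 9 from 102716672 to 102733418), which encodes an angiomotin that binds YAP and can keep it out of the nucleus, had 5661 and 4601 counts, or 321 and 341 CPM, the most of any member. Its difference was the best counted, and small, at 1.06-fold (log2 ratio 0.09, 95% counting interval 0.03 to 0.14, exact binomial test, adjusted p = 0.00962), and the FPKM values of 91.5 and 94.0 gave a log2 ratio of 0.04. The ratio of *Amotl2* to *Ankrd1* counts was 21.7 in control and 21.0 in *Myl3*-KO, and its log2 change of -0.05 had an interval from -0.32 to 0.23.

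**Figure D3:**
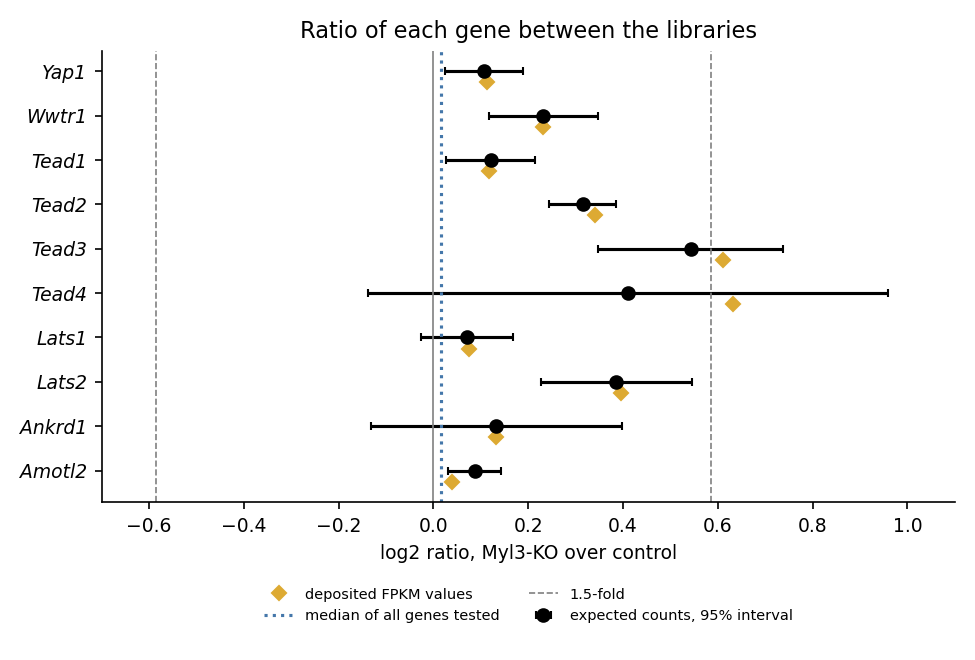
Log2 ratio of *Myl3*-KO over control for each member from the expected counts with its 95% counting interval (black) and from the FPKM values (yellow), with 1.5-fold (dashed) and the median of all genes tested at 0.02 (dotted). All 10 black points lie to the right of 0 and inside 1.5-fold, and the yellow points of *Tead3* at 0.61 and *Tead4* at 0.63 lie outside it.

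The counting intervals of 8 members ended below 1.5-fold, and only those of *Tead3* and *Tead4* reached it. Summed over the members, the level was 1037 CPM in control and 1168 in *Myl3*-KO, 1.13-fold. Set in order of FPKM, the control library ran from *Amotl2* at 91.5 and *Tead2* at 90.6 over *Yap1*, *Wwtr1*, *Lats1*, *Tead1*, *Tead3*, *Ankrd1* and *Lats2* to *Tead4* at 1.22, a range of 75.0-fold. The counting intervals of neighbours overlapped for *Amotl2* and *Tead2*, *Wwtr1* and *Lats1*, *Tead3* and *Ankrd1*, and *Ankrd1* and *Lats2*, so 4 of the 9 steps in this order are not set by the counts. In *Myl3*-KO the order began with *Tead2* at 115 FPKM, ahead of *Amotl2* at 94.0 with intervals that did not overlap, and ended again with *Tead4*. The range there was 60.7-fold, and 3 steps had overlapping intervals, those from *Lats1* to *Tead3*, from *Tead3* to *Tead1* and from *Lats2* to *Ankrd1*. Among all genes tested, *Tead2* and *Amotl2* were at percentile 93.0 of FPKM in control, *Yap1* at 80.5, *Wwtr1* at 58.2 and *Tead4* at 15.7.

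Other genes known as YAP and TAZ targets were taken as a list of 22, of which *Amotl2*, *Lats2* and *Ankrd1* are members, and 20 were tested. Of these 20, 1 was called higher (5.00%, near the 3.80% of all genes) and 0 lower, *Gadd45a*, a growth arrest gene with 147 and 172 counts (log2 ratio 0.61, 95% counting interval 0.29 to 0.94). By the adjusted p with no fold limit, 11 were higher, 2 lower and 7 did not pass, beside 18.6% of all genes higher and 16.8% lower, or 24.0% and 27.3% of those with at least 1000 counts. The median log2 ratio of the list was 0.24. Without the members, 17 were tested, 9 of them higher and 2 lower by the adjusted p, with a median of 0.25. *Ccn1*, listed under its older symbol *Cyr61* and encoding a matricellular protein, had 1559 and 1394 counts (log2 ratio 0.22, 95% counting interval 0.12 to 0.33). *Ccn2*, listed as *Ctgf* and encoding connective tissue growth factor, had 247 and 244 counts (log2 ratio 0.37, 95% counting interval 0.11 to 0.63). The receptor tyrosine kinase gene *Axl* had 5120 and 5311 counts (log2 ratio 0.44, 95% counting interval 0.38 to 0.49). *Crim1* had 308 and 281 counts and a log2 ratio of 0.25, with an adjusted p of 0.0857 in the exact binomial test. The genes lower by the adjusted p, *Igfbp3* with 15417 and 9445 counts (log2 ratio -0.32) and *Tgfb2* with 4282 and 2607 (log2 ratio -0.33), were named after their values were seen. They encode an IGF-binding protein and a TGF-β ligand, and their direction was opposite to that of *Ccn1* and *Ccn2*. A window was at hand for 15 genes of this list, and 7 of them held the TEAD letters. Without the members these were 4 of 12, *Ccn1*, *Axl*, *Crim1* and *Ptpn14*, beside 16.6% of all genes.

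The other genes of the pathway, given by role, moved both ways. Of 17 kinases and their partners, 16 were tested and 1 was called, *Map4k2*, a MAP4K kinase that can act on LATS, with 296 and 355 counts (log2 ratio 0.65, 95% counting interval 0.42 to 0.88, exact binomial test, adjusted p = 1.38e-07). Neither *Map4k2* nor *Gadd45a* was called when a variation of 0.2 between replicates was assumed. By the adjusted p, 6 of the 16 were higher (37.5%, beside 18.6% of all genes), 2 lower (12.5%, beside 16.8%) and 8 did not pass, and the median log2 ratio was 0.05. The MST kinase gene *Stk3* had 815 and 616 counts (log2 ratio -0.02, adjusted p = 0.915 by the exact binomial test), and *Sav1*, which encodes the scaffold of the MST kinases, 1184.06 and 904.01 (log2 ratio -0.0033, adjusted p = 0.999). *Stk4*, the other MST kinase gene, had 1246 and 848 counts (log2 ratio -0.17, 95% counting interval -0.30 to -0.04) and *Mob1a*, which encodes a LATS partner, 6932 and 4745 (log2 ratio -0.16, 95% counting interval -0.21 to -0.11), and these were the 2 that were lower. *Mob1b*, the paralogue of *Mob1a*, had 1961 and 1402 counts and a log2 ratio of -0.10 (95% counting interval -0.20 to 0.00).

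Of 25 upstream regulators and binding partners, 23 were tested and 0 were called by the exact binomial test with the 1.5-fold limit, while 14 had an unadjusted p under 0.05, 11 higher and 3 lower, beside 22.6% of all genes higher and 20.3% lower. By the adjusted p, 10 were higher (43.5%, beside 18.6% of all genes) and 2 lower (8.70%, beside 16.8%), with a median log2 ratio of 0.05. Of all genes tested, 3.80% were called higher and 1.19% lower with the fold limit. *Nf2*, which encodes the activator Merlin, had 4368 and 3552 counts (log2 ratio 0.09, 95% counting interval 0.02 to 0.15), and *Wwc1*, which encodes its partner KIBRA, 212 and 124 (log2 ratio -0.39, 95% counting interval -0.72 to -0.06, exact binomial test, adjusted p = 0.0504). The angiomotin genes *Amot* and *Amotl1* had log2 ratios of 0.15 and 0.33, both with intervals above 0, beside 0.09 for the member *Amotl2*. The atypical cadherin gene *Fat4* had 1537 and 1185 counts (0.01) and *Ptpn14*, which encodes a phosphatase that binds YAP, 1561 and 1288 (0.11). Of the VGLL cofactors, which compete with YAP for TEAD proteins, *Vgll4* had 1286 and 1038 counts (log2 ratio 0.08, 95% counting interval -0.04 to 0.20), and *Vgll3* was at 0 in both libraries, which allows up to 0.170 CPM in control and 0.223 in *Myl3*-KO at a floor of 3 counts.

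**Figure D4:**
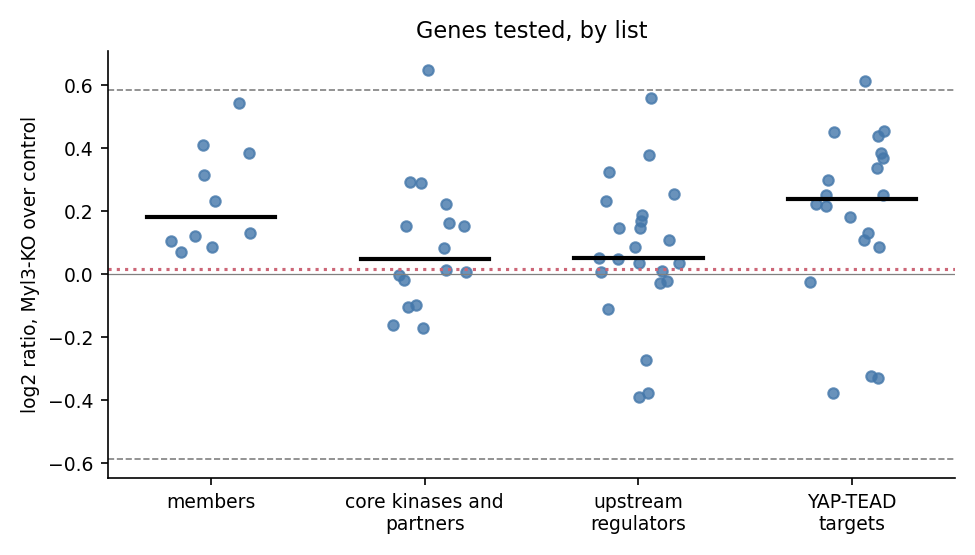
Log2 ratio of *Myl3*-KO over control for each gene tested of the members and of 3 lists, with the median of each as a bar, 1.5-fold as dashed lines and the median of all genes tested at 0.02 as a dotted line. The medians were 0.18 for the members, 0.05 for kinases and partners, 0.05 for upstream regulators and 0.24 for targets, which share 3 genes with the members. The upstream and target lists also overlap, with *Ptpn14* among the shared genes.

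The pathway column of the table assigned 153 genes to the KEGG Hippo signaling pathway, 8 of them members, since *Ankrd1* and *Amotl2* are not assigned to it. Of the 116 tested, 5 were called higher and 0 lower, and 38 were higher and 16 lower by the adjusted p, with a median log2 ratio of 0.05. The share called higher, 4.31%, was near the 3.80% of all genes tested, and by the adjusted p 32.8% were higher and 13.8% lower, beside 18.6% and 16.8% of all genes. The genes called, named after their values were seen, were *Ccnd1*, *Lef1*, *Wnt9a*, *Ccnd2* and *Tgfb1*, which encode cyclins, a Wnt-responsive transcription factor, a Wnt ligand and a TGF-β ligand. *Lef1* had 40 and 54 counts (log2 ratio 0.82, 95% counting interval 0.20 to 1.45). *Wnt9a* had 53 and 69 counts (log2 ratio 0.77, 95% counting interval 0.23 to 1.31). Both *Lef1* and *Ccnd2* fell out when at least 100 counts over both libraries were asked for. *Ccnd1*, with 136.14 and 221.72 counts that were not whole, had a log2 ratio of 1.09 (95% counting interval 0.78 to 1.41), and *Tgfb1*, with 530 and 638 counts, one of 0.65 (95% counting interval 0.49 to 0.82). *Ccnd2*, with 27 and 35 counts, had an adjusted p of 0.0991 in the exact binomial test and was not called with TMM or DESeq2 factors. With a variation of 0.2 assumed between replicates, 1 of the 5, *Ccnd1*, was called. The KEGG assignment takes in Wnt, TGF-β and cell polarity genes besides the kinase cascade.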

How the data were processed

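The authors deposited 1 expected count and 1 FPKM value (fragments per kilobase and library size) per gene and library. The labels name the builds GRCm38 and mm10, a SMARTER library kit and total RNA, while the study's methods describe bead-enriched mRNA and random primers, and the counting tool is not given in the sources used here. The column headed NC was read as control because the other is headed KO. There was 1 library per genotype, each numbered 1 in its column header, so tests of edgeR and DESeq2 that need replicates were not run. An exact binomial test, two-sided, set the rounded counts of each gene against the ratio of the totals where both libraries together held at least 10 counts, with Benjamini-Hochberg adjustment over all genes tested. The log2 ratio used unrounded CPM with counts under 3 raised to 3. Genes were called at p under 0.05 and at least 1.5-fold. Pairs of members were compared by Fisher's exact test. Depth was 17612435 counts in control and 13477977 in *Myl3*-KO, 3 counts being 0.170 and 0.223 CPM. Loci and exon overlaps are those of GENCODE M21 (GRCm38), perhaps not the annotation used for counting, and window sequences from RefSeq on GRCm38.p6. Named were all members, called genes of the lists, cell type markers and 17 pathway genes set in the design, and others where the text says that they were chosen after their values were seen. The members and lists were chosen with earlier results of these data known. Python 3.11.15 (scipy 1.17.1) was used, and R 4.3.3 for edgeR (4.0.16) and DESeq2 (1.42.0).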

Additional observations from a re-analysis of the deposited data

How the results depend on the processing

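The settings tried were scaling by DESeq2 size factors or TMM factors, leaving out the filter on low counts, and asking for at least 10 counts in each library. The counts called on the target list and among the other pathway genes stayed at 1 each. The KEGG count was 5, or 4 with either scaling, which lost *Ccnd2*. For the members the count stayed at 0, but these settings could not have called one. All 10 ratios lay under 1.5-fold, and each setting left them unchanged or lowered them. With no fold limit and an adjusted p under 0.05, 7 members, 13 target genes, 20 other pathway genes and 54 KEGG Hippo signaling genes passed, and 2307 genes in all were higher and 2090 lower. With a limit of 2-fold, 0 target genes, 0 other pathway genes and 1 KEGG gene were called, and 182 genes in all were higher and 66 lower. With edgeR's exact test at a preset coefficient of variation of 0.2, these were 0, 0, 1, 127 and 48. With at least 100 counts over both libraries, chosen after seeing the data, 3 KEGG genes were called and 253 genes were higher and 81 lower. By the adjusted p, 5 in place of 7 members passed with TMM or DESeq2 factors, which moved all log2 ratios by -0.02. All 40 recomputed log2 ratios of the members stayed above 0 and within the counting interval. The FPKM ratio put 2 members past 1.5-fold, *Tead3* and *Tead4*. No paired analysis was possible because there is 1 library per group, and no library could be left out for the same reason. Depth limits *Tead4* and *Ankrd1* most.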
